A study of Mus musculus with 36 samples.

Results

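The Frizzled receptors, the seven-pass transmembrane proteins that bind Wnt ligands at the cell surface, were followed at the RNA level in cultured mouse nephron progenitor cells (NPCs). The 10 genes Fzd1 to Fzd10 were found by matching Ensembl identifiers to gene symbols, and all 10 had a row in each of the 3 tables of normalized read counts, which held 25760, 26863 and 26472 genes. Primary NPCs, the cells that give rise to the nephron, came from E16.5 kidneys and were cultured for 24 h with no (0 µM), low (1.25 µM) or high (5 µM) CHIR, an inhibitor of the kinase GSK3β that stabilises β-catenin. Wild-type NPCs were measured at no, low and high CHIR with 3 libraries per dose. Per the methods, all cultures were seeded in low CHIR, so the group without CHIR also had an earlier exposure to it. β-catenin removal was measured at low and high CHIR with 2 libraries per group in 2 systems, NPCs with floxed β-catenin alleles (B-catenin_c_c) with or without Cre mRNA, and Cas9-eGFP NPCs given guide RNAs (sgRNA) against Ctnnb1 or against GFP. Removal of the 4 Tcf/Lef transcription factors (QKO), also in Cas9-eGFP NPCs, used guides against Tcf7, Tcf7l1, Tcf7l2 and Lef1 together, with a GFP guide as control. It had 3 libraries in each of its groups except QKO low CHIR, which had 2. Transfected cells took up the reagents over 3 h, were kept in low CHIR for 24 h (β-catenin) or 48 h (Tcf/Lef) before the final 24 h, and were sorted on a co-delivered mCherry signal for RNA, so every removal and control group shared this earlier exposure to low CHIR. Sorted cells can include some that escaped removal, and all the Cas9 groups carried the Cas9-eGFP transgene whichever guide they received.

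Frizzled proteins carry an extracellular cysteine-rich domain to which Wnt ligands bind. With the co-receptors Lrp5 and Lrp6 they pass the signal to Dishevelled, which stops the destruction of β-catenin, and β-catenin then works with the Tcf/Lef factors on target genes. Some family members also act in planar cell polarity, the alignment of cells within a tissue. In the developing kidney, Wnt9b from the ureteric bud acts on NPCs and Wnt4 made by the induced cells drives their change into an epithelium. CHIR acts below the receptors, on the kinase that marks β-catenin for destruction.

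The 9 libraries of wild-type cells and the 27 of the removal experiments had between 13089780 and 76071568 reads on genes, with a median of 18990328. Of the 10 genes, 9 passed the filter on low values (a mean of at least 10 normalized counts) in each table, and Fzd9 passed it in none. Between genes, levels are given as normalized counts per kilobase of exon (annotated length for GENCODE vM21, build GRCm38), and between samples as normalized counts. Tables were normalized separately, so no level is set against one in another table. The longest stretch of identical bases between any pair of the 10 transcripts was 47 bases, between Fzd1 and Fzd2 and between Fzd1 and Fzd7, against a read length of 150 bases.

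The promoters of Fzd4 and Fzd7 are shown because both genes were lower in wild-type NPCs at high CHIR and the reference table held the start of each. Each window is the 250 bases before the RefSeq start, 5′ to 3′ on the strand of the gene (GRCm38.p6, RefSeq sequence). Fzd4 lies on the plus strand at chr7:89404116-89404365, with its last 11 bases inside the longer GENCODE gene, and Fzd7 on the plus strand at chr1:59481897-59482146, wholly outside its GENCODE gene. Capitals mark a match to the Tcf/Lef core, searched on both strands in 4 forms, CTTTGAT as the first form, CTTTGTT as the second form, CTTTGAA as the third form and CTTTGTA as the last form.
Fzd4: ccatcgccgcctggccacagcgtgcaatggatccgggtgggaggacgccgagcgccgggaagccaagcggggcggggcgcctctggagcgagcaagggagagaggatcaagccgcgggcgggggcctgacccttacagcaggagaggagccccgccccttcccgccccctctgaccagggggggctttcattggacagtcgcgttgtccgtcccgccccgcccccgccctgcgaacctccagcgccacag
Fzd7: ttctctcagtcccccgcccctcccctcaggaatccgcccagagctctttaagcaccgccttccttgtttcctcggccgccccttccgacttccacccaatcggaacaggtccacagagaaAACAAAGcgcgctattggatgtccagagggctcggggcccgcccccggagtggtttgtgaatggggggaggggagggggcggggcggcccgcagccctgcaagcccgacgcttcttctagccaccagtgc
The Fzd7 window held 1 match, AACAAAG, starting at base -130 from the start, which reads as the second of the forms searched on the other strand. The Fzd4 window held none. Among the 6 member promoters in the table (Fzd1, Fzd4, Fzd5, Fzd7, Fzd9 and Fzd10), Fzd7 was the one with a match. Of all 32851 promoters of that length, 14.8% held one. The Fzd10 window lay wholly inside its GENCODE gene, and the Fzd9 window had 183 of its 250 bases inside. Fzd5 had 1 base inside and Fzd1 had 0. The bases before the GENCODE start were thus not searched for Fzd10, and only in small part for Fzd9. The GC content was 72.8% for Fzd4 and 65.2% for Fzd7, against a median of 52.4% over all promoters.

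At low CHIR, the dose that keeps wild-type NPCs self-renewing, 5 receptor genes were abundant. Fzd2 was the highest, with 789 normalized counts per kilobase (range 760.5 to 821.7), followed by Fzd4 with 216.2 (166.4 to 309.2), Fzd7 with 143.6 (138.5 to 148.8), Fzd1 with 112.0 (105.2 to 116.3) and Fzd3 with 100.6 (84.09 to 112.4). The ranges of Fzd1 and Fzd3 overlapped, and the other neighbours among these 5 were apart in the 3 libraries. Fzd6 had 10.86, Fzd8 4.127, Fzd5 4.033, Fzd10 1.002 and Fzd9 0.365 normalized counts per kilobase. The ranges of Fzd8 and Fzd5 overlapped. Summed over the family, Fzd2 made up 57.3% ± 4.7 (SD, n = 3) of the Frizzled RNA per kilobase.

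The first comparison asks how the receptor genes differ between the dose that keeps progenitors and the dose that induces them. Between low and high CHIR in wild-type NPCs, Fzd6 and Fzd10 rose and Fzd2, Fzd4 and Fzd7 fell. These 5 of the 9 tested receptors were called (limma, Benjamini-Hochberg adjusted p under 0.05 and an absolute log2 fold change of at least 1), against 7.59% of all 17411 genes tested, 3.99% of them higher and 3.61% lower. Against no CHIR, 6 of 9 were called at high CHIR (cut-off 0.5 here and in all later comparisons), Fzd3 joining the same 2 higher and 3 lower receptors, where 23.4% of all genes were called (11.4% higher, 12% lower). Both comparisons use the same high CHIR libraries. Between no and low CHIR none of the 9 was called, with 4.97% of all genes called in limma and 3884 genes at an unadjusted p under 0.05. Of the receptors, Fzd1, Fzd2, Fzd6 and Fzd7 were at an unadjusted p under 0.05 there, edgeR called 0 of 9 and DESeq2 called 1 of the 8 to which it gave an adjusted p. In these bulk samples, fewer cells of a type and less RNA per cell cannot be told apart. The labels do not say whether replicates came from separate cultures or litters, so p-values measure the spread between these libraries, which may be technical. Fold changes are on the scale of log2(normalized count + 1), which understates the change of genes with few counts.

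**Figure D1:**
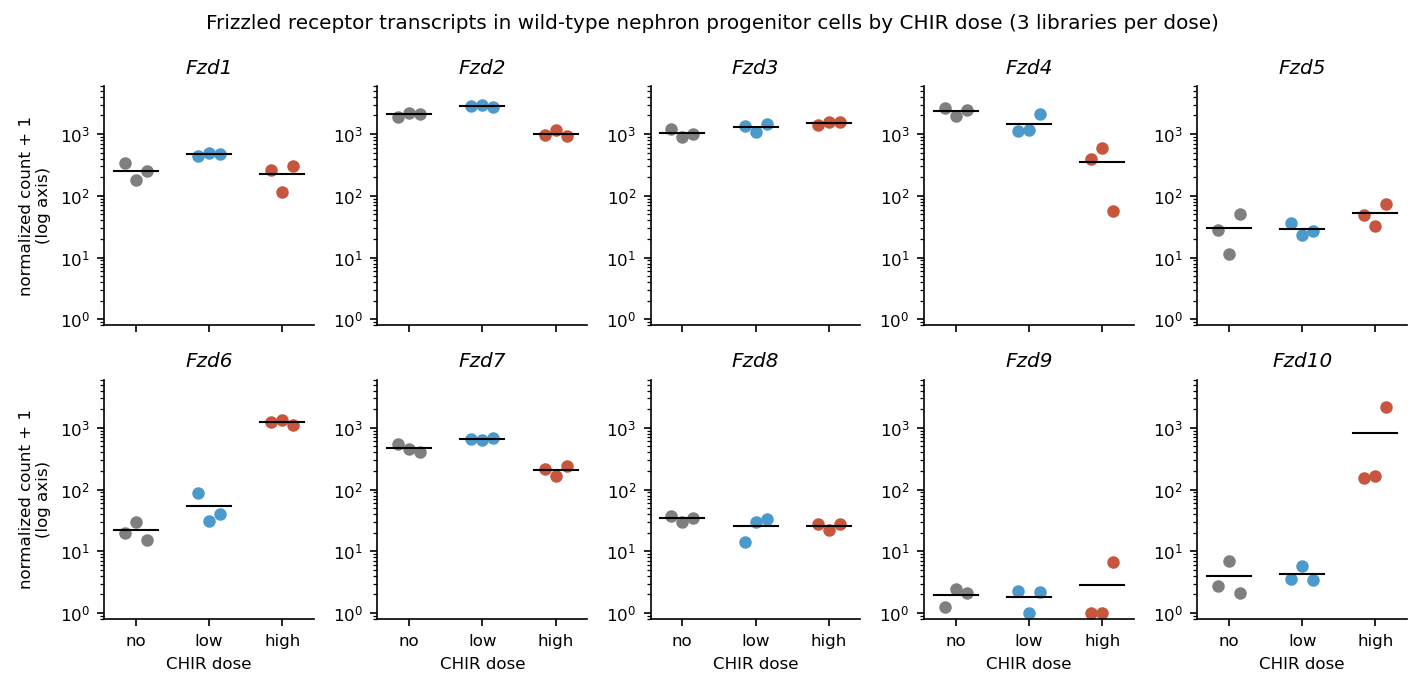
Normalized counts of the 10 Frizzled genes in wild-type NPCs at 0, 1.25 and 5 µM CHIR (log axis of normalized count + 1). Each point is 1 library and each line the group mean, n = 3 per dose. Fzd6 and Fzd10 stand highest at 5 µM, Fzd2, Fzd4 and Fzd7 lowest there, and 1 high CHIR library sits apart for Fzd4 (56.1) and Fzd10 (2176).

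Fzd6, a receptor best known for planar polarity in skin and hair, has 7 exons at chr15:39006034-39038188 (GRCm38, plus strand). It had 19.12, 29.27 and 14.52 normalized counts without CHIR, 88.04, 29.43 and 39.52 at low CHIR, and 1250, 1329 and 1087 at high CHIR. The high CHIR libraries lay far above all the others, and the 3 doses did not overlap. The means at low and high CHIR were 52.3 ± 31.3 and 1222 ± 123 (SD, n = 3 each), a 23.4-fold ratio, and the fitted log2 fold change was 4.67 (SE 0.40, limma adjusted p = 8.57e-05). Against no CHIR it was 5.85 (adjusted p = 1.26e-05). Between no and low CHIR the log2 fold change was -1.18 (adjusted p = 0.115), with a 95% interval of -2.06 to -0.30, while DESeq2 called it (-1.33, adjusted p = 0.0143). An opposite-strand gene, Gm26704, shares 152 exon bases with Fzd6, and the library kit does not mark strand. Gm26704 was listed in the β-catenin table alone, at no more than 4.50 normalized counts.

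Fzd3, the nearest relative of Fzd6 and a planar polarity receptor of axon guidance, has 7 exons at chr14:65192449-65262463 (GRCm38, minus strand). It differed little between doses, with 1209, 885.5 and 1008 normalized counts without CHIR, 1348, 1077 and 1440 at low CHIR and 1399, 1563 and 1586 at high CHIR. Low and high CHIR overlapped, and the log2 fold change between them was 0.24 (SE 0.16, adjusted p = 0.396), with a 95% interval of -0.11 to 0.60. Against no CHIR, Fzd3 was higher at high CHIR by 0.56 (limma adjusted p = 0.0281). That call was lost without no CHIR replicate 2 (adjusted p = 0.0842), without no CHIR replicate 3 (0.0914) and without high CHIR replicate 2 (0.0718).

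Fzd4, a receptor for the non-Wnt ligand Norrin as well as for Wnts and best known in retinal vessels, has 2 exons at chr7:89404355-89413134 (GRCm38, plus strand). Its counts were 2664, 1936 and 2418 without CHIR, 1118, 1163 and 2078 at low CHIR, and 398.9, 587.6 and 56.08 at high CHIR. The high CHIR libraries lay below all the others, while no and low CHIR overlapped. The low and high CHIR means were 1453 ± 542 and 347 ± 269 (SD, n = 3 each), a ratio of 4.18, with a log2 fold change of -2.55 (SE 0.69, limma adjusted p = 0.0414). High CHIR replicate 3, at 56.08, stood apart for this gene and widened the spread, and without it the log2 fold change was -1.52 (adjusted p = 0.00273). The call was lost without low CHIR replicate 1, 2 or 3 (adjusted p between 0.0888 and 0.158) and with edgeR on the recovered reads (adjusted p = 0.0597). Against no CHIR the log2 fold change was -3.29 (adjusted p = 0.0069).

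Fzd10 belongs to the same branch of the family as Fzd4 and is a single exon at chr5:128600844-128604093 (GRCm38, plus strand). It was near the floor without CHIR, at 1.784, 5.855 and 1.117 normalized counts, and at low CHIR, at 2.628, 4.747 and 2.395, where the libraries held 2 to 5 reads each. At high CHIR it had 152.4, 167.5 and 2176 normalized counts, so all 3 libraries were above the others and replicate 3 was far above the other two. The log2 fold change was 6.53 (SE 0.93, limma adjusted p = 0.00168), and 5.28 (adjusted p = 0.000263) without high CHIR replicate 3. Fzd9, the third of this branch, is a single exon at chr5:135248938-135251230 (GRCm38, minus strand). It was not tested, with 0 to 6 reads per library in the wild-type and β-catenin tables and 0 to 3 in the Tcf/Lef table. Fzd9 was at 0 reads in 3 of 9, 8 of 16 and 4 of 11 libraries.

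Fzd1, Fzd2 and Fzd7, a branch of 3 close relatives that signal through β-catenin and are each a single exon, were all lower at high than at low CHIR, and 2 of them were called. Fzd2 (chr11:102604396-102608058, plus strand) had 1905, 2197 and 2147 normalized counts without CHIR, 2875, 3010 and 2786 at low CHIR, and 951.2, 1160 and 921.6 at high CHIR. Its 3 doses did not overlap and low CHIR was the highest. High CHIR was 2.86-fold lower than low CHIR, with a log2 fold change of -1.52 (SE 0.13, limma adjusted p = 8.57e-05). Fzd7 (chr1:59482424-59486955, plus strand) followed the same order, with 535.5, 447.9 and 408.8, then 650.4, 627.6 and 674.3, then 217.4, 167.5 and 235.5 normalized counts. High CHIR was 3.15-fold lower than low CHIR for Fzd7, with a log2 fold change of -1.66 (SE 0.18, adjusted p = 0.000315). Without CHIR both were below low CHIR without passing the limma test, Fzd2 by a log2 fold change of -0.47 (adjusted p = 0.0632) and Fzd7 by -0.50 (adjusted p = 0.139). In DESeq2, Fzd2 passed the adjusted p (0.0204) at -0.46, a change under the cut-off of 0.5, and Fzd7 did not pass (0.0774).

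Fzd1 (chr5:4753839-4758035, minus strand) had 334.9, 181.5 and 248.0 normalized counts without CHIR, 441.5, 488.0 and 480.3 at low CHIR, and 258.8, 114.5 and 306.6 at high CHIR. Every low CHIR library was above every other library. The log2 fold change from low to high CHIR was -1.17 (SE 0.35, limma adjusted p = 0.0615), with a 95% interval of -1.94 to -0.39. It was called without high CHIR replicate 3, at -1.44 (adjusted p = 0.0134), and by DESeq2 on the recovered reads (adjusted p = 0.0213).

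Fzd5 and Fzd8, a pair of relatives that signal through β-catenin, were low at every dose. Fzd5 has 2 exons at chr1:64730558-64737751 (GRCm38, minus strand) and Fzd8 a single exon at chr18:9212163-9218136 (plus strand). Fzd5 had 10.25 to 50.27 normalized counts without CHIR, 21.84 to 35.48 at low CHIR and 32.10 to 72.90 at high CHIR. Fzd8 had 29.27 to 36.20, 13.14 to 32.34 and 20.94 to 27.11. For both genes low and high CHIR overlapped, and the log2 fold changes were 0.80 for Fzd5 (95% interval -0.42 to 2.02, adjusted p = 0.419) and 0.10 for Fzd8 (-0.79 to 0.99, adjusted p = 0.91). Differences within these intervals were not detectable at these counts. Fzd5 shares 1233 exon bases with an opposite-strand gene, Gm38058, which had no row in any table.

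The dose responses of the controls in the removal experiments show which of these differences appeared again in other cells. Both β-catenin control arms and the Tcf/Lef control arm showed Fzd6 and Fzd10 higher and Fzd4 lower at high than at low CHIR. The numbers called were 3 of 9 without Cre, 3 of 9 with GFP sgRNA and 4 of 9 in the QKO control, the fourth being Fzd2. Among all genes 8.05% were called without Cre (2.8% higher, 5.24% lower), 7.51% with GFP sgRNA (2.98% higher, 4.53% lower) and 14.9% in the QKO control (6.98% higher, 7.96% lower). For Fzd6 the log2 fold changes were 4.19 without Cre (limma adjusted p = 0.000481), 3.37 with GFP sgRNA (adjusted p = 0.00282) and 3.83 in the QKO control (adjusted p = 1.43e-05). Fzd4 gave -2.54 (adjusted p = 6.65e-05), -1.51 (adjusted p = 0.00444) and -2.35 (adjusted p = 7.09e-06), and Fzd10 gave 3.58 (adjusted p = 0.00839), 3.44 (adjusted p = 0.0123) and 3.33 (adjusted p = 0.00276). With 2 libraries a group, single libraries carried some of these calls. The Fzd10 call was lost without no Cre high CHIR replicate 1 (adjusted p = 0.097) and without GFP sgRNA low CHIR replicate 2 (0.105), and the Fzd4 call was lost without GFP sgRNA low CHIR replicate 2 (0.0529) and without GFP sgRNA high CHIR replicate 2 (0.0521).

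Fzd2 and Fzd7 did not share one pattern across these controls. Fzd2 fell in the QKO control, from 3091, 2231 and 1365 normalized counts at low CHIR to 986.5, 923.3 and 616.7 at high CHIR (log2 fold change -1.35, SE 0.26, limma adjusted p = 0.00452). Without Cre its values were 3346 and 1583 at low CHIR and 1292 and 870.4 at high CHIR, a log2 fold change of -1.12 that missed the threshold (adjusted p = 0.0553). It passed without no Cre low CHIR replicate 2 (adjusted p = 0.00772), by edgeR (0.0446) and by DESeq2 (0.00791). With GFP sgRNA, Fzd2 gave -0.31 (adjusted p = 0.644). Fzd7, called lower in wild-type cells, gave -0.04 without Cre (95% interval -0.69 to 0.61), 0.62 with GFP sgRNA (-0.03 to 1.27) and -0.50 in the QKO control (-1.27 to 0.26), none of them called. With GFP sgRNA the Fzd7 values were 682.6 and 817.1 at low CHIR and 1152 and 1145 at high CHIR, so the groups did not overlap and lay in the direction opposite to wild-type cells. The Fzd7 value of the QKO control was called without its low CHIR replicate 3, at -0.95 (adjusted p = 0.0274).

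In the Tcf/Lef table the replicate numbers paired the libraries, and fitting the number as a block added Fzd1 to the 4 called receptors of the QKO control. Fzd1 had 626.2, 466.8 and 191.1 normalized counts at low CHIR and 426.9, 145.6 and 80.80 at high CHIR for replicates 1, 2 and 3, lower at high CHIR within each number. The log2 fold change was -1.15 (adjusted p = 0.249, and 0.0119 with the replicate block). Stromal markers moved with the replicate number too. Col3a1, a fibrillar collagen, had 2473, 698 and 60.5 normalized counts in the same low CHIR libraries, and the part of the stromal genes in the spread of Fzd1 was not tested. Fzd3 was higher at high CHIR by 0.49 (adjusted p = 0.0185), just under the cut-off of 0.5 and so not called. Its adjusted p rose past the threshold without QKO control low CHIR replicate 1 (0.0516) and without QKO control high CHIR replicate 2 (0.0668).

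**Figure D2:**
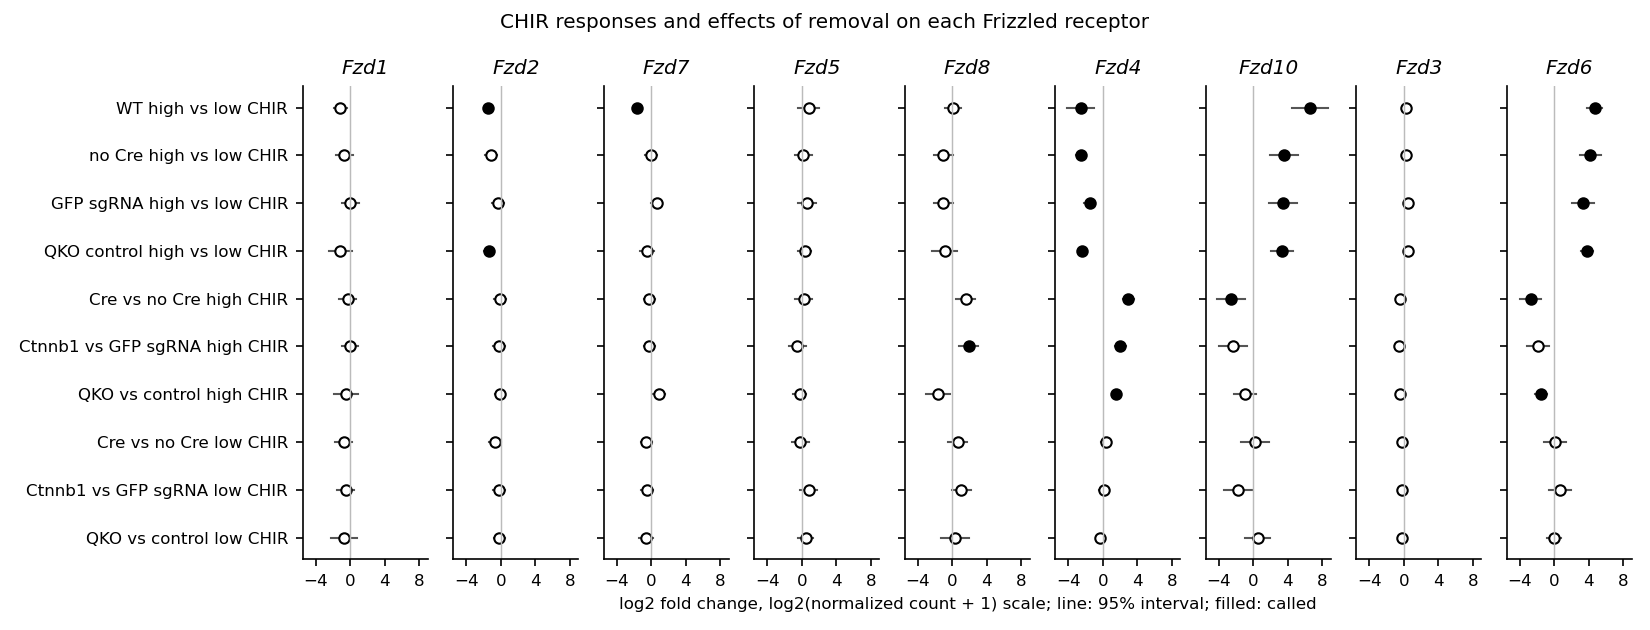
Log2 fold changes of the 9 tested Frizzled genes in 10 comparisons, 4 of high with low CHIR and 6 of removal with control (axis in log2 units, lines are 95% intervals from limma, filled points are called). Fzd4 lies below 0 in the 4 comparisons of high with low CHIR and above 0 in the 3 removal comparisons at high CHIR, and Fzd6 lies on the opposite sides.

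The removal experiments ask which responses to CHIR depended on β-catenin and on its Tcf/Lef partners. At high CHIR, removal of β-catenin with Cre left Fzd4 higher and Fzd6 and Fzd10 lower than in cells without Cre (3 of 9 called, against 8.65% of all genes, 5.9% higher and 2.75% lower). With the Ctnnb1 sgRNA, Fzd4 and Fzd8 were higher than with the GFP sgRNA (2 of 9, against 5.09%, 3.44% higher). In QKO cells Fzd4 was higher and Fzd6 lower than in their control (2 of 9, against 2.54%, 2.05% higher and 0.491% lower). At low CHIR none of the 9 receptors was called in any of the 3 removals. The background there was 0.328% of genes for Cre, 0.0536% for the Ctnnb1 sgRNA and 0.0063% for QKO, a single gene, with 1795, 576 and 706 genes at an unadjusted p under 0.05 in limma. Among the receptors only Fzd10 with the Ctnnb1 sgRNA reached such a p (0.0346), at 5.961 and 2.164 normalized counts with GFP sgRNA and 0 and 0.918 with Ctnnb1 sgRNA, and edgeR called 0 of 9 in each. DESeq2 also called 0, of 9 with Cre, of 8 with Ctnnb1 sgRNA and of 6 in QKO cells, the receptors to which it gave an adjusted p.

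Fzd4 was the 1 receptor called at high CHIR in all 3 removals. Without Cre it had 337.8 and 160.8 normalized counts at high CHIR, and with Cre 1599 and 2122, a 7.46-fold ratio (log2 fold change 2.98, SE 0.28, limma adjusted p = 1.93e-05). The Cre values at high CHIR were close to those at low CHIR, 1622 and 1990, and the ratio of the high to the low mean was 1.03 with Cre. With GFP sgRNA the high CHIR values were 368.7 and 329.3, and with Ctnnb1 sgRNA 1444 and 1408, a 4.09-fold ratio (log2 fold change 2.03, SE 0.28, adjusted p = 0.000888). The QKO control had 269.5, 415.6 and 297.7 at high CHIR and QKO cells 903.1, 988.8 and 1004, a 2.95-fold ratio (log2 fold change 1.58, SE 0.18, adjusted p = 0.00107). In each of the 3 experiments the groups were apart. In QKO cells the ratio of the high to the low CHIR mean was 0.713, from 1436 and 1272 at low CHIR.

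The difference between the doses in the effect of removal was itself tested as an interaction. For Fzd4 it was 2.58 for Cre (SE 0.40, limma adjusted p = 0.00599) and 1.87 for QKO (SE 0.27, adjusted p = 0.0288), each the 1 receptor of 9 called, where 0.995% and 0.126% of all genes were called, 0.745% and 0.107% with a higher value. For the Ctnnb1 sgRNA it was 1.89 (95% interval 1.04 to 2.75) and missed the threshold (adjusted p = 0.0603), with 0 of 9 called against 0.518% of all genes. No other receptor passed in limma. An unadjusted p under 0.05 was reached by Fzd6 in all 3 interactions, by Fzd10 for Cre and by Fzd7 for QKO, and for the Ctnnb1 sgRNA edgeR called 0 of 9 and DESeq2 1. The Cre call was lost where only the 4 groups of that system were fitted (adjusted p = 0.073), while the Ctnnb1 sgRNA value passed there (0.0045) and with DESeq2 (0.000806). The QKO call was lost when any of 8 of the 11 libraries was left out (adjusted p from 0.058 to 0.128).

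**Figure D3:**
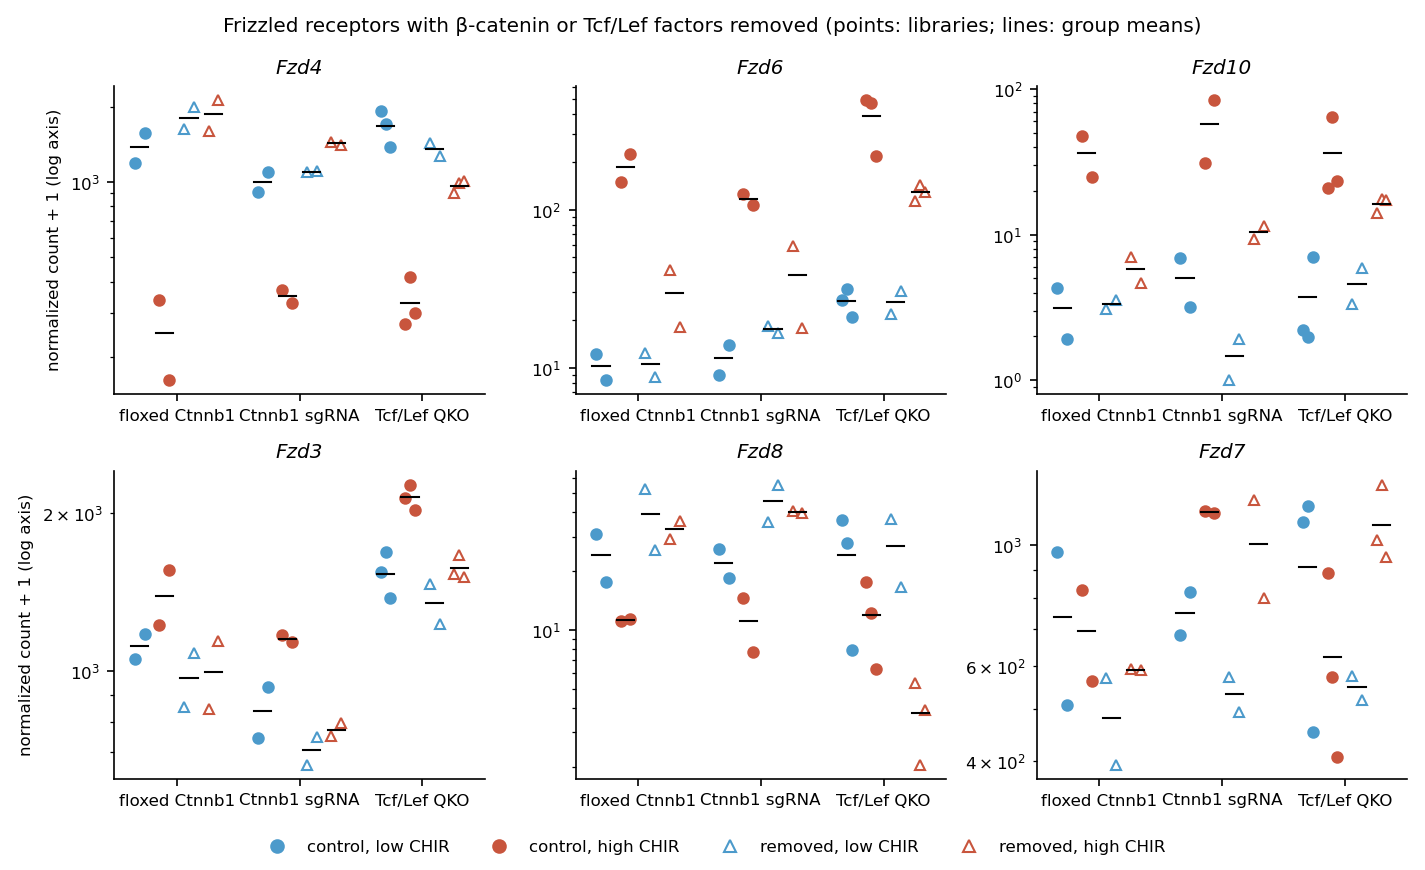
Normalized counts of Fzd4, Fzd6, Fzd10, Fzd8, Fzd7 and Fzd3 in the removal experiments at low and high CHIR (log axis of normalized count + 1). Points are single libraries, filled for controls and open for removals, and lines are group means, n = 2 or 3. The Tcf/Lef table was normalized apart from the β-catenin table. Fzd4 falls from low to high CHIR in each control and lies above its control at high CHIR in each removal.

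Fzd6 moved the other way. Without Cre it had 149.1 and 223.1 normalized counts at high CHIR, and with Cre 40.39 and 17.00, 6.49-fold lower (log2 fold change -2.75, SE 0.59, limma adjusted p = 0.00942). That call was lost without no Cre high CHIR replicate 2 (adjusted p = 0.0818) and without Cre high CHIR replicate 2 (0.0994). With GFP sgRNA the values were 125.1 and 105.3 and with Ctnnb1 sgRNA 58.01 and 16.72, so the groups were apart, but the log2 fold change of -1.84 missed the threshold (SE 0.59, adjusted p = 0.0943). It passed without Ctnnb1 sgRNA high CHIR replicate 1 (adjusted p = 0.0459). In the QKO experiment, control cells had 492.0, 468.2 and 216.9 and QKO cells 113.0, 142.3 and 128.2, 3.07-fold lower (log2 fold change -1.53, SE 0.32, adjusted p = 0.0293). The adjusted p was between 0.0924 and 0.15 without QKO control high CHIR replicate 1 or 2 or QKO high CHIR replicate 1, 2 or 3. In the means of the removal cells, high CHIR exceeded low CHIR 3-fold with Cre, 2.27-fold with Ctnnb1 sgRNA and 5.09-fold in QKO cells. These ratios within the removal arms were not tested, and those of the β-catenin removals rest on few reads. Cre cells had 6 and 11 reads at low CHIR and 14 and 40 at high CHIR. Ctnnb1 sgRNA cells had 17 and 19 at low CHIR and 19 and 63 at high CHIR.

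Fzd10 had few reads in all the removal experiments. At high CHIR it had 46.95 and 23.86 normalized counts without Cre and 6.058 and 3.643 with Cre, 7.30-fold lower (log2 fold change -2.59, SE 0.75, limma adjusted p = 0.0477). The call was lost when any 1 of these 4 libraries was left out (adjusted p from 0.0845 to 0.275). The GFP sgRNA values were 29.97 and 83.28 and the Ctnnb1 sgRNA values 8.288 and 10.56, apart, with a log2 fold change of -2.30 (adjusted p = 0.0987) that passed with edgeR (0.0499) and DESeq2 (0.0294). In the Tcf/Lef table the control had 19.78, 63.71 and 22.33 and QKO cells 13.04, 16.62 and 16.39, with a log2 fold change of -0.96 (95% interval -2.26 to 0.35, adjusted p = 0.52). Fzd10 means stayed higher at high than at low CHIR in the removal cells. They were 4.85 against 2.32 normalized counts with Cre, 9.43 against 0.459 with Ctnnb1 sgRNA and 15.3 against 3.61 in QKO cells. These differences within the removal arms were not tested. The Ctnnb1 sgRNA interaction for Fzd10 was -0.54 (95% interval -2.82 to 1.74, limma adjusted p = 0.956). A change in its dose response was thus not detected there.

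Fzd8 was low throughout the β-catenin table, where high CHIR controls had the lowest values. It had 10.13 and 10.37 normalized counts without Cre and 28.27 and 35.21 with Cre (log2 fold change 1.53, adjusted p = 0.0895), and 13.49 and 6.70 with GFP sgRNA and 39.60 and 38.73 with Ctnnb1 sgRNA (log2 fold change 1.93, SE 0.51, limma adjusted p = 0.0481). The second was called, and the call was lost when any 1 of its 4 libraries was left out (adjusted p from 0.0726 to 0.372) and with edgeR (0.0554). In the Tcf/Lef table the order was the opposite, with 16.48, 11.12 and 5.316 in the control at high CHIR and 4.346, 1.039 and 2.893 in QKO cells (log2 fold change -1.66, 95% interval -3.10 to -0.22, adjusted p = 0.265).

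Fzd3 and Fzd7 showed smaller differences at high CHIR that did not pass the test. Fzd3 was lower in all 3 removals, by a log2 fold change of -0.49 with Cre (adjusted p = 0.169), -0.58 with Ctnnb1 sgRNA (adjusted p = 0.118) and -0.45 in QKO cells (limma adjusted p = 0.0846, and 0.0176 with the replicate block). In the last, control cells had 2132, 2259 and 2025 normalized counts and QKO cells 1529, 1664 and 1507, with no overlap. DESeq2 gave an adjusted p of 0.0135 for it. Fzd7 had 886.8, 570.4 and 406.1 normalized counts in the QKO control at high CHIR and 1020, 1290 and 948.7 in QKO cells, also apart (log2 fold change 0.87, 95% interval 0.10 to 1.63, adjusted p = 0.273). With Cre the Fzd7 log2 fold change was -0.21 (-0.86 to 0.44) and with Ctnnb1 sgRNA -0.22 (-0.88 to 0.43). The values of Fzd1, Fzd2 and Fzd5 overlapped between removal and control at high CHIR, except for Fzd5 with the Ctnnb1 sgRNA (log2 fold change -0.49, adjusted p = 0.614), and none passed the test. For Fzd2 the log2 fold changes were -0.07, -0.19 and -0.09, with 95% intervals within -0.90 and 0.64, so its lower level at high CHIR in the QKO control stood beside QKO cells that were also lower at high CHIR, with a mean 2.41-fold below that at low CHIR.

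Summed over the 10 genes, the Frizzled RNA per kilobase of wild-type NPCs was 1176 ± 56 without CHIR, 1382 ± 72 at low CHIR and 1068 ± 308 at high CHIR (SD, n = 3). The 3 high CHIR libraries summed to 856, 926 and 1421, so that replicate 3 lay within the low CHIR range and the others below it. In the controls of the removals the sum was 1248 ± 393 at low and 717 ± 112 at high CHIR without Cre (SD, n = 2), 980 ± 137 and 943 ± 17 with GFP sgRNA (SD, n = 2), and 1292 ± 416 and 733 ± 179 in the QKO control (SD, n = 3). Without CHIR, Fzd2 held 48.5% ± 5.7 and Fzd4 29.5% ± 3.3 of the sum. At high CHIR, Fzd2 held 27.4% ± 8.6, Fzd6 25.3% ± 8.2, Fzd10 19.4% ± 24 and Fzd3 11.6% ± 2.5, while Fzd4 held 5.66% ± 4.6. The Fzd10 share ran from 5.48% to 47.1% between the high CHIR libraries. In order of level, Fzd2, Fzd10 and Fzd6 at 276.0, 256.0 and 253.7 normalized counts per kilobase overlapped at high CHIR. Fzd2 was the highest receptor in every group except QKO high CHIR, where Fzd7 at 239.7 and Fzd2 at 213.5 overlapped. In the groups with Cre at high CHIR, Fzd2 at 278.5 and Fzd4 at 276.9 overlapped.

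**Figure D4:**
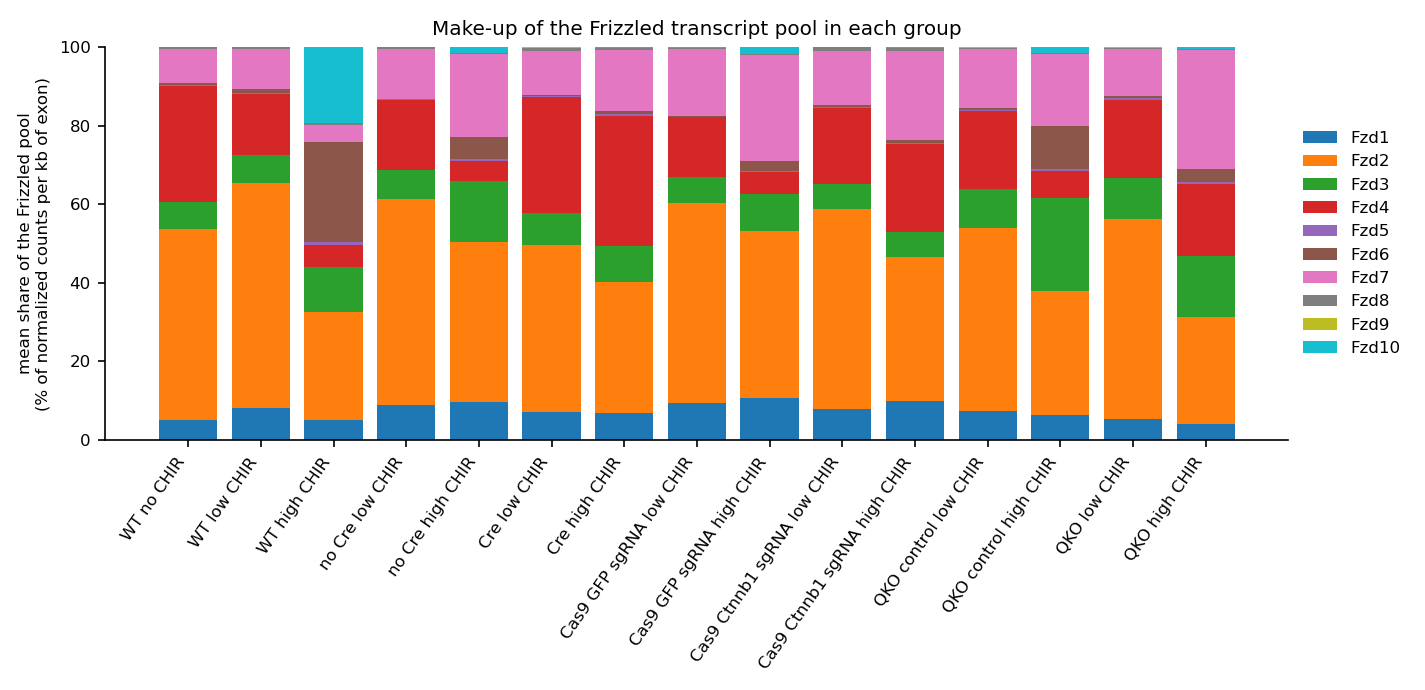
Share of the summed Frizzled normalized counts per kilobase held by each receptor gene in each group (percent, stacked bars of group means, n = 2 or 3). Fzd2 holds 57.3% in wild-type cells at low CHIR and 27.4% at high CHIR, where Fzd6 holds 25.3%.

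Other genes of the pathway were counted by role, from lists of co-receptors, receptor turnover, transducers and planar polarity. In wild-type cells at high against low CHIR, 0 of 10 co-receptors and other Wnt receptors rose and 1 fell, Ryk, a kinase-like Wnt receptor (log2 fold change -1.14). Tspan12, a partner of Fzd4 in Norrin signalling, and Adgra2, a receptor that works with Reck in Wnt7 signalling, were lower at high CHIR without Cre (-1.25 and -2.17) and with GFP sgRNA (-1.26 and -1.53). At high CHIR they were higher with Cre (0.96 and 2.27) and with Ctnnb1 sgRNA (1.01 and 1.85), where 4 and 2 of 10 in this list rose and none fell. The interaction for Tspan12 with Cre was 1.22 (limma adjusted p = 0.0409). In QKO cells at high CHIR, limma called 0 of 10 in either direction.

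Among 12 genes of receptor turnover and inhibition, Znrf3, a ubiquitin ligase that removes Frizzled proteins from the surface, and Apcdd1, a membrane inhibitor, rose in wild-type cells at high CHIR (1.19 and 3.90) and Shisa3, of a family that retains Frizzled proteins inside the cell, fell (-1.72). Znrf3 also rose without Cre (1.33), with GFP sgRNA (1.30) and in the QKO control (1.20). At high CHIR it was lower with Cre (-1.44) and with Ctnnb1 sgRNA (-1.11), as was Shisa2 (-2.01 and -1.71). Shisa3, which fell with high CHIR in wild-type cells, was called lower with Cre as well, and not with Ctnnb1 sgRNA. In QKO cells 1 of 10 tested was called, Shisa2 (-1.88). Of 11 cytoplasmic transducers, Axin2, a feedback inhibitor and target of the pathway, was the 1 called in wild-type cells (2.83), with a median of 0.03 over the list. Of 7 tested planar polarity genes, Celsr1 (1.34) and Prickle1 (2.68) rose in wild-type cells at high CHIR, and Prickle1 was the 1 of 8 called in QKO cells (-1.54). At high CHIR with Cre, and with Ctnnb1 sgRNA, Prickle2 was the 1 of 7 called, and it was higher. The median over all genes tested lay within -0.02 and 0.04 in every comparison.

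The genes most like a receptor were those with the highest Pearson r over all 36 libraries after centring each table, among 11712 genes, given as a description because the libraries share tables, doses and controls. Fzd4 was most like Foxp1 (0.944), Pcdh1 (0.94) and Mbnl3 (0.934), and Fzd6 most like Cthrc1 (0.954), Sorbs2 (0.952) and Pdgfa (0.95). Fzd10 was most like Arhgef3 (0.914), Tec (0.909) and Mt1 (0.905), and Fzd7 most like Tapt1 (0.866). The leading gene was Tbl1xr1 for Fzd2 (0.854), Tnpo1 for Fzd3 (0.891), Olfm1 for Fzd1 (0.817), Wipf1 for Fzd8 (0.802) and Antxr2 for Fzd5 (0.707).

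Markers of the labelled cell type and of other kidney cells were read beside these results. Six2, the defining gene of NPCs, was detected in every library, at 60.5 to 3545 normalized counts. In wild-type cells at high against low CHIR, 9 of 12 progenitor markers fell, with sums of 4438 to 9933 at high and 19938 to 27055 at low CHIR, and 4 of 8 markers of the induced nephron rose. At high CHIR, 6 of 12 progenitor markers were higher with Cre and 3 lower (Itga8, Sall1 and Pax2), 5 were higher with Ctnnb1 sgRNA and 2 lower (Sall1 and Pax2), and 6 were higher in QKO cells and 0 lower. Of the induced markers, 5 of 7 tested were lower with Cre and 4 of 7 with Ctnnb1 sgRNA, while in QKO cells 0 of 8 were lower and 1 was higher (Ccnd1). The part of cell state in the receptor values was not tested. Fzd4 is also an endothelial receptor. Among 9 endothelial markers, Tie1 had 0 to 6.44, Cdh5 0 to 15.8 and Egfl7 119 to 540 normalized counts over the 36 libraries. The median of Egfl7 was 294, and Fzd4 ran from 56.1 to 2664. The endothelial list summed to 995 to 1817 in wild-type cells at high CHIR against 337 to 396 at low CHIR. Cldn5, a tight junction protein of vessels, moved in the direction of Fzd4. It had 10.8 to 31.3 normalized counts in wild-type cells at low CHIR and 0 in all 3 libraries at high CHIR, and at high CHIR it was higher with Cre (log2 fold change 3.08), with Ctnnb1 sgRNA (4.17) and in QKO cells (2.94). At high CHIR the list summed to 209 to 233 without and 331 to 593 with Cre, to 303 to 324 with GFP and 518 to 560 with Ctnnb1 sgRNA, and to 312 to 376 in the QKO control and 294 to 409 in QKO cells. Its part in the Fzd4 values was not tested. High CHIR replicate 3 of the wild-type cells stood apart in this list, with Tek, a vessel receptor kinase, at 13 normalized counts against 586 to 769 in the other high CHIR libraries and Flt1 at 1336, the library in which Fzd4 was lowest and Fzd10 highest. It also stood apart outside this list. Lef1 had 9125 normalized counts there, against 3811 and 4197 in the other high CHIR libraries, and Tcf7 1524, against 641 and 687. What set this library apart was not tested.

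Stromal sums ranged from 1466 to 4363 in wild-type cells at high CHIR and 3284 to 5839 at low CHIR, and blood sums from 201 to 295 and 685 to 813. In the Tcf/Lef table the stromal sum ranged from 174 to 3778 in the low CHIR control and from 382 to 4721 in QKO cells at high CHIR. One QKO control high CHIR library had a blood sum of 2817, mostly Lyz2. Of the 7 ureteric markers, Upk3a was at 0 in all libraries. Hoxb7 ran from 237 to 1544 normalized counts and Krt5, with a median of 0, from 0 to 2357. Hoxb7 was called higher at high than at low CHIR in wild-type cells and without Cre. The ureteric sums ranged from 1541 to 3449 in wild-type cells at high CHIR and 534 to 728 at low CHIR. The part of stromal, blood and ureteric cells in the receptor results was not tested. As a check of the removals, Ctnnb1 had 1629.9 and 1270.1 normalized counts with Ctnnb1 sgRNA at high CHIR against 2632 and 2701 with GFP sgRNA (log2 fold change -0.89, limma adjusted p = 0.0429). At high CHIR, Cre cells were not lower in Ctnnb1 (2254 and 2583, against 2423 and 2207 without Cre). At low CHIR they had 3085 and 2451, below the 3880 and 3097 without Cre, and the gene was not called. Whole-gene counts do not check excision of the floxed exons. Of the Tcf/Lef genes, Tcf7 fell in QKO cells at high CHIR (-1.64, adjusted p = 0.0175), and Lef1 had 254.7 to 512.9 normalized counts against 1144 to 2743 in the control without being called. Tcf7l1 was not lower in QKO cells at high CHIR (602, 539 and 736 normalized counts, against 612, 486 and 591 in the control), and Tcf7l2 overlapped between them (999 to 1616 against 1263 to 2233). At low CHIR, Tcf7l1 had 827 and 1286 in QKO cells, below the 2225, 1774 and 1736 of the control. Tcf7 had 66.2 and 97.7 there, below 220, 220 and 141. Lef1 and Tcf7l2 overlapped at low CHIR, and none of these genes was called at that dose. RNA counts do not check whether a guide disrupted the protein.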

How the data were processed

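Bulk RNA-seq of mouse NPCs was analysed from 3 tables of gene-level values for 36 libraries. Per the labels and the methods, the authors made cDNA with a SMARTer kit, which does not mark strand, used STAR to align paired 150-base reads against a joint genome (GRCm38 with human GRCh38), counted uniquely aligned, unambiguous reads per gene with featureCounts (Ensembl genes) and normalized with DESeq2. Reads over bases shared by 2 genes, or not unique, were thus left out of a gene's count. Gene positions and exon lengths here are from GENCODE vM21 on the same build, a later annotation than the one counted. The deposited values are a signal, counts divided by 1 size factor per library. Dividing by each library's smallest step gave whole reads for 100% of values (within 0.1 reads), and these recovered counts were used only in the alternatives. For 3 libraries the step is too near 1 to check it from the values. Depths were 13089780 to 76071568 reads on genes, and counts of few reads carry counting error.

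The main test was limma 3.58.1 (R 4.3.3, trend) on log2(normalized count + 1), with group means over all libraries of a table, genes with a mean of at least 10 and Benjamini-Hochberg adjustment over all genes tested. A gene was called at an adjusted p under 0.05 and an absolute log2 fold change of at least 1 (wild-type high against low CHIR) or 0.5. Alternatives were edgeR 4.0.16 (quasi-likelihood) and DESeq2 1.42.0 on recovered reads, pseudocounts of 0.5 and 5, no filter, TMM rescaling, another cut-off, only the groups compared, each replicate left out, and a replicate block. The tests were checked on simulated data. Same-numbered libraries of the Tcf/Lef table deviated together from their group means (correlations 0.214 to 0.637 in 15 pairs). Named genes were the 10 receptors, the targeted genes, at most 3 called genes per pathway list and comparison by smallest adjusted p, and the 3 most alike genes. A few called genes beyond the 3, and the markers named, were chosen after their values were seen. Members and lists were chosen with earlier results of these data known. Deposited columns of the authors' own comparisons in 8 tables and 50 library columns that match no sample here were not used.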

Additional observations from a re-analysis of the deposited data

Results flagged for a closer look

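The effect of Cre on Fzd4 differed between the doses by a log2 fold change of 2.58 (interaction, limma adjusted p = 0.00599), and both Cre libraries were above both no Cre libraries at high CHIR. The effect of QKO on Fzd4 differed between the doses by 1.87 (adjusted p = 0.0288), and all 3 QKO libraries were above all 3 controls at high CHIR. Fzd7 moved in opposite directions with the CHIR dose in 2 cell sources without overlap in either, by -1.66 from low to high CHIR in wild-type NPCs and by 0.62 in the GFP sgRNA control (adjusted p = 0.264). These 2 tables were normalized separately, and the difference between them was not tested.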

How the results depend on the processing

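Of 135 receptor values, 30 were called. Of the 402 alternatives of called values, 359 kept direction and call, 43 kept direction and missed the threshold, and 0 reversed. The cause of each change was not tested. The shares of all genes called under these settings are not given here. A change among the receptors therefore cannot be set against a general one. Fitting only the groups compared called 1 receptor for wild-type no against low CHIR (as did DESeq2), 4 for the Ctnnb1 sgRNA at high CHIR, 0 for the Cre interaction and 1 for the Ctnnb1 sgRNA interaction (also 1 with DESeq2), and no filter on low values left 1 for the Ctnnb1 sgRNA at high CHIR. The replicate block gave 1 receptor for Cre at low CHIR, 4 for the Ctnnb1 sgRNA at high CHIR and 1 for its interaction. It also added Fzd8 for Cre at high CHIR (limma adjusted p = 0.0493) and Fzd2 for the no Cre dose response (0.000356). The labels give only a shared number, and in the β-catenin table the block was fitted within each system. Same-numbered libraries of a system correlated there between 0.334 and 0.518 (Cre) and between 0.116 and 0.491 (Cas9). In wild-type cells (-0.016 to 0.272) the block gave 5 receptors for high against low CHIR but an adjusted p of 0.0521 for Fzd4 and 0.0347 for Fzd1, and among the Tcf/Lef libraries it changed 1 call, that given for Fzd1, while for Fzd3 in QKO cells the adjusted p passed but the change stayed under 0.5. Leaving out single replicates gave 1 to 2 called receptors for Cre at high CHIR, 1 to 2 for the Ctnnb1 sgRNA at high CHIR, 1 to 3 for the GFP sgRNA dose response, 1 to 2 for QKO at high CHIR and 0 to 1 for the QKO interaction. A group left with 1 library was assumed to vary like the others. DESeq2 gave an adjusted p for 128 of the 135 values, and not for Fzd10 in the 3 wild-type comparisons and for the Ctnnb1 sgRNA at low CHIR, nor for Fzd5, Fzd8 and Fzd10 for QKO at low CHIR.

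Signs reversed for 28 uncalled values, none past the adjusted p. Other settings gave Fzd5 0.076 (edgeR) and 0.083 (DESeq2) for wild-type no against low CHIR, Fzd10 0.31 (edgeR) and 0.58 (DESeq2) for the Ctnnb1 sgRNA interaction, and Fzd6 0.12 (replicate block) for QKO at low CHIR. Log2 fold changes with single replicates left out ranged as follows. For wild-type high against low CHIR, Fzd8 -0.28 to 0.34, and for wild-type no against low CHIR, Fzd5 -0.68 to 0.41 and Fzd10 -0.77 to 0.079, and for wild-type high against no CHIR, Fzd1 -0.52 to 0.19. For Cre at low CHIR, Fzd5 -0.55 to 0.23, Fzd6 -0.22 to 0.32 and Fzd10 -0.39 to 0.79, and for Cre at high CHIR, Fzd1 -0.68 to 0.081, Fzd2 -0.36 to 0.21 and Fzd7 -0.49 to 0.067, and for Ctnnb1 sgRNA at high CHIR, Fzd1 -0.65 to 0.57 and Fzd7 -0.53 to 0.077. For the no Cre dose response, Fzd5 -0.22 to 0.56 and Fzd7 -0.51 to 0.43, and for the GFP sgRNA dose response, Fzd1 -0.50 to 0.54, and for the Cre interaction, Fzd5 -0.031 to 0.75 and Fzd7 -0.11 to 0.83. For the Ctnnb1 sgRNA interaction, Fzd1 -0.10 to 1.11, Fzd2 -0.18 to 0.20, Fzd7 -0.031 to 0.57 and Fzd10 -1.26 to 0.028, and for QKO at low CHIR, Fzd2 -0.48 to 0.11, Fzd6 -0.25 to 0.22 and Fzd8 -0.36 to 0.89, and for QKO at high CHIR, Fzd1 -1.03 to 0.16 and Fzd2 -0.30 to 0.042. For the QKO interaction, Fzd1 -0.28 to 0.92 and Fzd2 -0.20 to 0.39. Depth limited Fzd5, Fzd8, Fzd9 and, outside wild-type high CHIR, Fzd10. It also limited Fzd6 at low CHIR in the β-catenin table, at 6 to 19 reads per library.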
